A study of Mus musculus with 24 samples.

Results

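The transcripts of 10 genes of the Wnt pathway were followed in the brain and the liver of mice that lack a phenylalanine tRNA gene. They comprise 8 Wnt target genes (Axin2, Lgr5, Rnf43, Znrf3, Tbx3, Nkd1, Sp5 and Lect2) and 2 R-spondin genes (Rspo1 and Rspo3). Each of the 10 gene symbols matched 1 row of the 55469 rows in the table of either tissue. Rspo1 was chosen by its brain counts, which differed from WT and from tRNA-Phe-2-1-/- in the tRNA-Phe-1-1-/- line in an earlier analysis of the same data, so its values in those contrasts are given as a description with no test. The other 9 genes were selected on their place in the pathway, by a list that was also written with results of these data known.

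The samples came from C57BL/6N mice at 10 weeks of age. The paper's methods name male mice, while its reporting summary states that results rest on both sexes. Each knockout was homozygous for a CRISPR-Cas9 deletion of a single gene, either tRNA-Phe-1-1 or tRNA-Phe-2-1 or else tRNA-Phe-3-1. Values given for the 3 knockouts together follow this order of the genes. The 3 genes belong to the same anticodon family and encode tRNAs that carry phenylalanine to the ribosome. The controls were WT mice of matching age. The paper calls them littermates and also states that mice of different litters were used. The sample titles give neither sex nor litter. RNA was sequenced from brain or liver tissue, giving 24 samples in all, 3 per genotype and tissue, with the replicate letters A, B and C. The labels do not say whether a brain and a liver sample with the same letter came from the same mouse. The deletion was in every cell of the animal, and the tissue holds many cell types. The deleted tRNA genes were not analysed here, so the genotype labels were not checked against them.

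Wnt proteins bind Frizzled receptors and stabilise beta-catenin, which switches on target genes together with TCF and LEF factors. Rnf43 and Znrf3 are ubiquitin ligases that remove Frizzled receptors from the cell surface, and R-spondins, held by Lgr receptors, clear these ligases and so strengthen the signal. Several targets feed back on the pathway, such as Axin2 and Nkd1, which restrain it inside the cell. In the liver, endothelial cells of the central vein supply Wnt2, Wnt9b and Rspo3, and the hepatocytes next to the vein are known for high levels of Axin2, Lgr5, Rnf43, Tbx3, Sp5 and Lect2 and of pericentral enzymes such as Glul. Hepatocytes around the portal vein carry a different set of enzymes, a division called zonation.

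Depth ranged from 30365760 to 46225360 reads in the brain samples and from 32276896 to 51584522 in the liver samples. The tissue labels held, since the neuronal gene Snap25 had 32419 to 67237 normalised counts in the brain against 0 to 3.376 in the liver, and the hepatocyte gene Alb had 1308113 to 2477751 in the liver against 3.233 to 877.2 in the brain. A normalised count is a read count divided by the size factor of its sample, set within each tissue, so levels are compared within a tissue. In the brain, 4 libraries stood apart by summed markers of the olfactory bulb or the thalamus, at over 3 times the median. These lists were picked for this after the data were seen. Summed olfactory bulb markers reached 6.71 times the median of all brain samples in tRNA-Phe-1-1-/- replicate A and 7.89 times in tRNA-Phe-3-1-/- replicate B. Summed thalamus markers reached 4.08 times the median in tRNA-Phe-2-1-/- replicate C and 3.24 times in tRNA-Phe-3-1-/- replicate C. Hypothalamus markers, not used in this choice, reached 3.97 times the median in tRNA-Phe-3-1-/- replicate A and 42.6 times in its replicate C. Without the 4 libraries, replicate A is the only tRNA-Phe-3-1-/- brain sample, and its choroid plexus markers were at 25.7 times the median.

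TCF and LEF factors bind the core motif CTTTGAT or CTTTGAA on either strand of DNA. Of the 10 genes, 6 had an entry in the RefSeq promoter table for GRCm38.p6, with 7 transcript starts between them. The motif lay within the 250 bases before the start in 2 of these promoters, those of Sp5 and Lect2, and it was the CTTTGAT form in both. Across all 32851 promoters of the table, 3.21% held CTTTGAT or its reverse complement ATCAAAG, 4.46% held CTTTGAA or TTCAAAG, and 7.48% held either. Both sequences are shown because they are the ones with a match among targets whose transcripts rose and fell together in the liver, and capitals mark the motif. A match describes these letters only and is not evidence that a factor binds there. The Sp5 promoter is on the plus strand at chr2:70474673-70474922, with the motif starting 104 bases before the start, and the Lect2 promoter is on the minus strand at chr13:56548539-56548788, with the reverse complement starting 32 bases before the start.
Sp5: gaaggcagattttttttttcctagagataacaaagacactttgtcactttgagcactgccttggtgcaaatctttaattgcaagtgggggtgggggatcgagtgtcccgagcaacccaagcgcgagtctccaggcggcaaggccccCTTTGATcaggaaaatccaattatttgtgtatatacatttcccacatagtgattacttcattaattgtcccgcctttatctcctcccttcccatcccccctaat
Lect2: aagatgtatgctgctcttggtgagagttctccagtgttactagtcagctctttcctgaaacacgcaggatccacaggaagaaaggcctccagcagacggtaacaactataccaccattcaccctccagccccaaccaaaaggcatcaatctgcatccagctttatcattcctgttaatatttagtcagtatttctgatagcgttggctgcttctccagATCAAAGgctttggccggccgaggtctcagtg
No match was found in the windows of Axin2, Nkd1, Rnf43 (either start) or Rspo1.

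Because each knockout removes a single gene of the phenylalanine tRNA family, the share of phenylalanine codons in the members' coding sequences was counted. It ran from 1.89% in Rspo1 (5 of 265 codons) and 1.99% in Lect2 (3 of 151) to 4.44% in Tbx3 (32 of 721) and 5.18% in Lgr5 (47 of 907). The median of 21464 coding genes was 3.74%. Rspo1 stood at percentile 10.1 of these genes and Lgr5 at percentile 76.6, and only Tbx3 and Lgr5 lay above the median. Axin2 (2.74%), Nkd1 (2.55%), Rnf43 (2.17%), Sp5 (3.02%), Znrf3 (2.63%) and Rspo3 (3.25%) were below it.

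Rspo1, a secreted ligand that strengthens Wnt signalling, is the member whose brain counts led to its choice. It lies at chr4:124986401-125009102. In WT brains it had 248.1, 160.6 and 284.4 normalised counts in replicates A, B and C, a mean of 231 ± 63.6 (SD, n = 3). In tRNA-Phe-1-1-/- brains it had 92.81, 83.13 and 76.16, a mean of 84.0 ± 8.36 (SD, n = 3). Every tRNA-Phe-1-1-/- value lay below the lowest WT value. The log2 difference was -1.41 ± 0.25 (SE), given with no test because this contrast chose the gene. In tRNA-Phe-2-1-/- brains Rspo1 had 245.2, 271.2 and 187.6 normalised counts, a mean of 235 ± 42.8 (SD, n = 3), and all 3 values lay within the range of WT. tRNA-Phe-1-1-/- was lower than tRNA-Phe-2-1-/- by -1.46 ± 0.25 on the log2 scale (SE), again a description.

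tRNA-Phe-3-1-/- brains were intermediate. Their Rspo1 counts were 103.4, 78.54 and 137.3, a mean of 106 ± 29.5 (SD, n = 3), and all 3 lay below the lowest WT value. The log2 difference from WT was -1.11 ± 0.25 (SE). tRNA-Phe-2-1-/- was higher than tRNA-Phe-3-1-/- by 1.15 ± 0.25 on the log2 scale (SE). tRNA-Phe-1-1-/- differed from tRNA-Phe-3-1-/- by -0.31 ± 0.25 on the log2 scale (SE). These contrasts share the WT, tRNA-Phe-2-1-/- and tRNA-Phe-1-1-/- samples whose values chose the gene, so they too are given with no test. From low to high, the mean levels were thus in the order tRNA-Phe-1-1-/-, then tRNA-Phe-3-1-/-, WT and tRNA-Phe-2-1-/-, and of the neighbours in this order only tRNA-Phe-3-1-/- and WT did not overlap.

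In bulk tissue, fewer cells of a type and less RNA per cell cannot be told apart. Of 14 lists of brain cell type and region markers, 2 were lower in every tRNA-Phe-1-1-/- sample than in every WT sample, 2 were higher and 10 overlapped. Over all genes, 25.2% did not overlap in this comparison. Summed oligodendrocyte markers (6 genes, none at 0 in any sample) were 44025 to 83672 normalised counts in tRNA-Phe-1-1-/- against 115758 to 138122 in WT. In tRNA-Phe-2-1-/- these sums were 64010 to 153170 and overlapped WT. Summed choroid plexus markers (6 genes, with Otx2 at 0 in 1 sample) were 244 to 634 in tRNA-Phe-1-1-/- against 649 to 13188 in WT. They were 221 to 53010 in tRNA-Phe-2-1-/-. Hippocampus markers were 4341 to 5004 against 3464 to 4001, and olfactory bulb markers (5 genes, with Eomes and Tbx21 each at 0 in 1 sample) were 502 to 3481 against 167 to 285. The part of these 4 lists in the Rspo1 difference was not tested. In tRNA-Phe-3-1-/-, 3 lists were higher than in WT (olfactory bulb, 667 to 4094, striatum, 15022 to 22632, and hypothalamus, 399 to 9184), 1 was lower (endothelium, 5859 to 6018 against 6112 to 6553 in WT) and 10 overlapped. The share of all genes that did not overlap was 16.4% in tRNA-Phe-3-1-/-. The part of these lists was not tested either. Meningeal fibroblast markers overlapped between tRNA-Phe-1-1-/- (3408 to 3749) and WT (1758 to 3819). Without the 4 libraries that stood apart, the log2 difference of Rspo1 was -1.49 between tRNA-Phe-1-1-/- and WT and -1.11 between tRNA-Phe-3-1-/- and WT, where tRNA-Phe-3-1-/- then had a single sample that the fit assumes to vary like the other groups.

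In the liver Rspo1 was close to the detection limit. WT livers had 15.63, 9.883 and 10.38 normalised counts, from 16, 10 and 8 reads. tRNA-Phe-1-1-/- livers had 2.823, 7.053 and 2.047, tRNA-Phe-2-1-/- livers had 6.41, 3.262 and 0, and tRNA-Phe-3-1-/- livers had 0, 4.501 and 2.011. All 9 knockout samples were below the lowest WT sample in normalised counts. In reads, tRNA-Phe-1-1-/- replicate B and tRNA-Phe-2-1-/- replicate A had 8 each, the same as WT replicate C. Among the liver genes tested, which exclude Rspo1, 34.8%, 25.4% and 19.9% did not overlap WT in the 3 knockouts. A count of 0 allows up to 2.765 normalised counts in tRNA-Phe-2-1-/- replicate C and 2.881 in tRNA-Phe-3-1-/- replicate A at a floor of 3 reads. The mean over all 12 samples, 5.33, was under the minimum of 10 that a gene needed to be tested. In the fit with no minimum, the log2 differences from WT were -1.49, -2.01 and -2.32 (SE 0.78 each) in the 3 knockouts, and the adjusted p values were 0.314, 0.385 and 0.253. Summed markers of mesothelium, the cell layer that covers the liver (6 genes, with Upk1b at 0 in 2 samples), were 170 to 291 in WT, 137 to 201 in tRNA-Phe-1-1-/-, 72 to 131 in tRNA-Phe-2-1-/- and 72 to 132 in tRNA-Phe-3-1-/-. Their part in the Rspo1 difference was not tested.

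Rspo3, the R-spondin of the central vein, was at a similar level in all brain groups. Its brain means were 381 ± 63.5 in WT, 452 ± 59.2 in tRNA-Phe-1-1-/-, 373 ± 53.5 in tRNA-Phe-2-1-/- and 413 ± 110 in tRNA-Phe-3-1-/- (SD, n = 3 each). The log2 differences from WT were 0.25, -0.03 and 0.09 with an SE of 0.20, and every adjusted p was at least 0.592. In the liver, WT samples had 209.1, 190.8 and 188.1 normalised counts and tRNA-Phe-2-1-/- samples had 306.1, 292.5 and 237.8. All tRNA-Phe-2-1-/- samples were above all WT samples. The means were 196 ± 11.4 and 279 ± 36.1 (SD, n = 3), and the log2 difference of 0.50 ± 0.15 (SE; 95% interval 0.17 to 0.83) did not pass the threshold (adjusted p = 0.184). tRNA-Phe-1-1-/- livers (208, 246 and 185.2) and tRNA-Phe-3-1-/- livers (189.2, 211.5 and 238.3) overlapped WT, with log2 differences of 0.11 for both (95% intervals -0.21 to 0.44). The difference between the brain and the liver in the tRNA-Phe-2-1-/- effect on Rspo3 was -0.53 ± 0.26 on the log2 scale (adjusted p = 0.472).

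**Figure D1:**
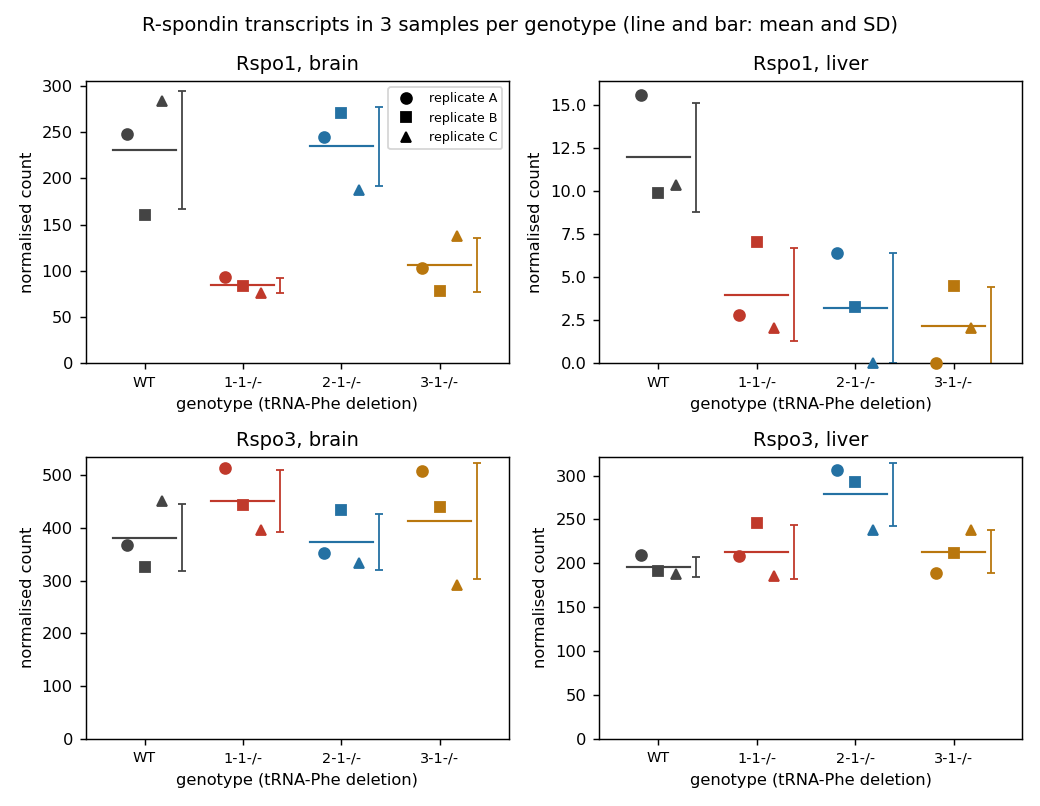
Normalised counts of Rspo1 (top) and Rspo3 (bottom) in the brain (left) and liver (right), for WT and the 3 knockouts on the x axis. Points are replicates A, B and C, lines are means and bars are the SD of 3 samples. Brain Rspo1 was 76.16 to 92.81 in tRNA-Phe-1-1-/- and 160.6 to 284.4 in WT, and liver Rspo3 was 237.8 to 306.1 in tRNA-Phe-2-1-/- and 188.1 to 209.1 in WT.

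Of the 10 genes, 8 reached the minimum mean in the brain, all but Sp5 and Lect2. In tRNA-Phe-1-1-/- against WT, Rspo1 was the 1 member called, where 1.05% of all 19228 genes were called. tRNA-Phe-1-1-/- against tRNA-Phe-2-1-/- also gave Rspo1 alone (0.53% of all genes), as did the test of any difference among the 4 genotypes (0.634%). These 3 counts hold the contrasts that chose Rspo1 and are not read further. No member was called by limma in tRNA-Phe-2-1-/- against WT (0.0% of all genes), tRNA-Phe-3-1-/- against WT (0.0%), tRNA-Phe-1-1-/- against tRNA-Phe-3-1-/- (2.11%) or tRNA-Phe-2-1-/- against tRNA-Phe-3-1-/- (0.0%). At an unadjusted p under 0.05 these comparisons gave 1, 1, 0 and 1 members. DESeq2 called Rspo1 in tRNA-Phe-3-1-/- against WT and in tRNA-Phe-2-1-/- against tRNA-Phe-3-1-/- and no member in the other pair, and edgeR called none in all 4. The Rspo1 calls rest on samples whose values chose the gene and are not read further.

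Lgr5, the receptor that holds R-spondins and a marker of stem cells in the gut, was uneven in the brain. It lay between 49.1 and 110 normalised counts in 10 of the 12 samples. The other 2 samples were tRNA-Phe-1-1-/- replicate A with 427.4 and tRNA-Phe-3-1-/- replicate B with 857, which were also the 2 samples with high olfactory bulb markers. The means were 83.1 ± 19.2 in WT, 187 ± 209 in tRNA-Phe-1-1-/-, 89.9 ± 18.9 in tRNA-Phe-2-1-/- and 353 ± 436 in tRNA-Phe-3-1-/- (SD, n = 3 each). The log2 differences from WT were 0.56, 0.12 and 1.34 with an SE of 0.85, and none passed the threshold (lowest adjusted p = 0.563). tRNA-Phe-3-1-/- samples (100.2, 857 and 102.7) were all above WT samples (93.24, 95.12 and 60.95). The 4 libraries that stood apart, chosen after the data were seen, include these 2 high samples. Without the 4, the log2 differences were -0.35, -0.03 and 0.30, the last from a single tRNA-Phe-3-1-/- sample. The change follows from the removal of the high values and is not a test. The part of the brain region in the Lgr5 values was not tested.

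Nkd1, a feedback inhibitor that acts on Dishevelled, had its highest brain values in the 2 samples with high thalamus markers. tRNA-Phe-3-1-/- replicate C had 386.1 normalised counts and tRNA-Phe-2-1-/- replicate C had 306.4. The other 10 samples lay between 175.6 and 248.7. The log2 difference between tRNA-Phe-3-1-/- and WT was 0.33 ± 0.22 (SE, adjusted p = 0.582). It was -0.01 without the 4 libraries that stood apart, which include both high samples and leave a single tRNA-Phe-3-1-/- sample. The part of the brain region in the Nkd1 values was not tested.

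**Figure D2:**
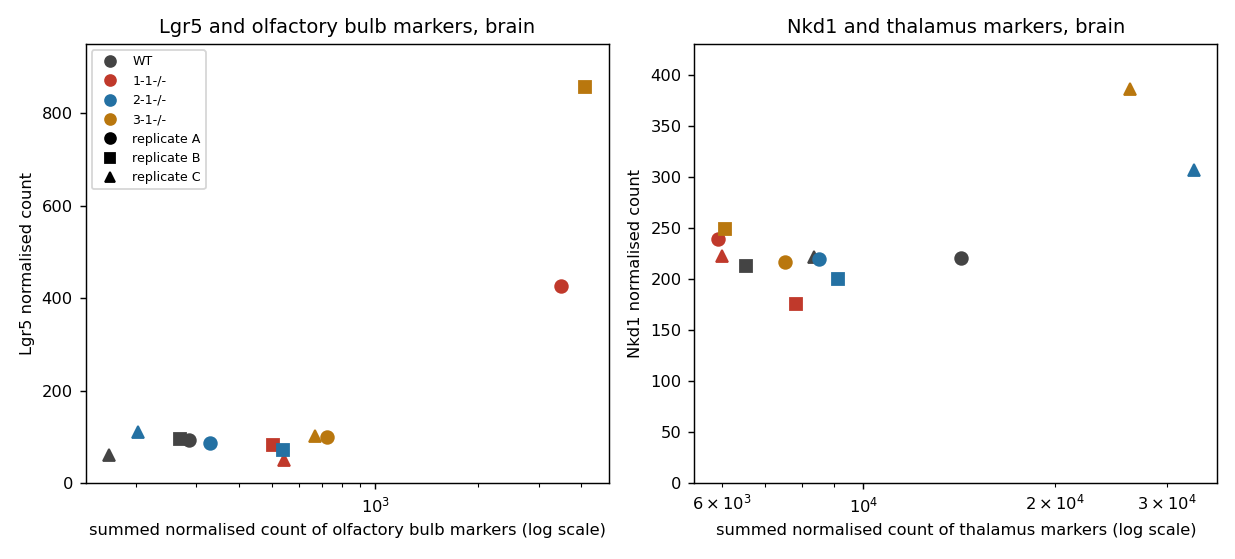
Brain Lgr5 against summed olfactory bulb markers (left) and brain Nkd1 against summed thalamus markers (right), 1 point per sample, in normalised counts with log x axes. Colours are genotypes and shapes are replicates. The Lgr5 values of 427.4 and 857 belong to the 2 samples with olfactory bulb sums of 3481 and 4094, and the Nkd1 values of 306.4 and 386.1 to the 2 samples with thalamus sums of 33004 and 26207.

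The ligase gene Znrf3 had 506.4, 595 and 561 normalised counts in WT brains and 653.5, 683.1 and 649.1 in tRNA-Phe-2-1-/- brains. The groups did not overlap, and the means were 554 ± 44.7 and 662 ± 18.5 (SD, n = 3). The log2 difference of 0.26 ± 0.10 (SE; 95% interval 0.04 to 0.48) did not pass the threshold (adjusted p = 0.894). Across the brains of tRNA-Phe-1-1-/- and of tRNA-Phe-3-1-/-, Znrf3 ranged from 529.9 to 689.4. Its relative Rnf43 ranged from 51.29 to 135.1 over the 12 brain samples, and both of these extremes were tRNA-Phe-2-1-/- samples.

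Axin2, the scaffold that promotes beta-catenin breakdown, was even across brain genotypes. Its 12 values lay between 595.9 and 946.4, and the log2 differences from WT were 0.06, -0.13 and -0.14 with an SE of 0.18. The widest of their 95% limits was -0.53, in tRNA-Phe-3-1-/-. Tbx3, a T-box transcription factor, lay between 42.77 and 86.18 normalised counts, with its largest log2 difference from WT, 0.43 ± 0.27 (SE, adjusted p = 0.464), in tRNA-Phe-1-1-/-. Sp5, a zinc-finger factor of the Wnt response, had 2.155 to 10.57 normalised counts in the brain and was too low to test. Lect2 was at 0 in 10 of 12 brain samples and had 0.8554 in WT replicate A and 2.155 in tRNA-Phe-3-1-/- replicate A, at floors of 2.215 to 3.438 in the samples with 0.

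Brain groups that did not overlap WT were counted for the 8 members tested. In tRNA-Phe-1-1-/- this held for 1 of 8 (Rspo1, lower), where 25.2% of all genes did not overlap. In tRNA-Phe-2-1-/- it held for 1 of 8 (Znrf3, higher), where the share of all genes was 11.4%. In tRNA-Phe-3-1-/- it held for 2 of 8 (Lgr5, higher, and Rspo1, lower), where the share was 16.4%. Rspo1 was chosen by its brain counts, so its entries in these counts are not read against the shares. The median log2 difference from WT over the 8 members was 0.14, 0.12 and 0.18 in the 3 knockouts, and the median of all genes was 0.00 in each. The 3 comparisons share the WT samples.

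In the liver 9 of the 10 genes were tested, all but Rspo1, and limma called none in any comparison. In tRNA-Phe-1-1-/- against WT 17.3% of the 15856 genes tested were called, and 0 of the 9 members, with 0 members at an unadjusted p under 0.05. For tRNA-Phe-2-1-/- and then tRNA-Phe-3-1-/- against WT the shares of all genes were 0.132% and 0.883%, with 2 and 1 members at an unadjusted p under 0.05. Among the knockouts, the shares were 15.9% where tRNA-Phe-1-1-/- was set against tRNA-Phe-2-1-/-, 16.1% where tRNA-Phe-1-1-/- was set against tRNA-Phe-3-1-/- and 0.0% where tRNA-Phe-2-1-/- was set against tRNA-Phe-3-1-/-, with 2, 1 and 1 such members. The test of any difference among the 4 genotypes called 17.0% of all genes and no member. DESeq2 called Znrf3 in tRNA-Phe-3-1-/- against WT and Rspo3 and Znrf3 in the test of the 4 genotypes, and no member elsewhere in the liver. edgeR called none.

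Znrf3 was the liver target with the largest difference relative to its error. WT livers had 476.8, 432.9 and 413.8 normalised counts and tRNA-Phe-3-1-/- livers had 572.5, 678.5 and 575.1. All tRNA-Phe-3-1-/- samples were above all WT samples, with means of 609 ± 60.5 and 441 ± 32.3 (SD, n = 3). The log2 difference was 0.46 ± 0.12 (SE; 95% interval 0.19 to 0.73), with an adjusted p of 0.102 in limma and 0.0253 in DESeq2. tRNA-Phe-1-1-/- (442.3, 589.8 and 476.8) and tRNA-Phe-2-1-/- (473.5, 526.3 and 527.2) overlapped WT, with log2 differences of 0.18 and 0.21. The test of the 4 genotypes gave an adjusted p of 0.0876 for Znrf3 and 0.105 for Rspo3. In the brain the tRNA-Phe-3-1-/- difference for Znrf3 was 0.19, and the difference between the tissues was -0.27 ± 0.16 (SE, adjusted p = 0.447).

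Lect2, a protein that pericentral hepatocytes secrete, was measured in WT livers at 1676, 1147 and 1331 normalised counts and in tRNA-Phe-2-1-/- livers at 2127, 1961 and 2542. The groups did not overlap, with means of 1385 ± 268 and 2210 ± 300 (SD, n = 3), and the log2 difference of 0.68 ± 0.29 (SE; 95% interval 0.06 to 1.31) did not pass the threshold (adjusted p = 0.302). tRNA-Phe-3-1-/- livers spread from 1464 to 3241 and overlapped WT (log2 difference 0.61 ± 0.29, adjusted p = 0.325). tRNA-Phe-1-1-/- livers had 1750, 954 and 1592, at a log2 difference of 0.02 (95% interval -0.61 to 0.64).

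Liver Lgr5 was 226.7, 108.7 and 176.4 normalised counts in WT and 229.2, 261 and 245.2 in tRNA-Phe-2-1-/-, with no overlap. The log2 difference of 0.58 ± 0.38 (SE, adjusted p = 0.502) was within the error, as WT samples alone spanned 108.7 to 226.7. tRNA-Phe-3-1-/- livers ranged from 172.9 to 464.5 (0.68 ± 0.38, adjusted p = 0.421) and tRNA-Phe-1-1-/- livers from 115.5 to 247.6 (0.18, adjusted p = 0.797). The level of Lgr5 in tRNA-Phe-2-1-/- varied least, with an SD of 15.9 against 59.2, 69.6 and 156 in the other groups.

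Axin2 in the liver had a mean of 276 ± 143 in WT, 209 ± 77.3 in tRNA-Phe-1-1-/-, 298 ± 54.6 in tRNA-Phe-2-1-/- and 248 ± 66.7 in tRNA-Phe-3-1-/- (SD, n = 3 each). The log2 difference in tRNA-Phe-1-1-/- was -0.33 with a 95% interval of -1.21 to 0.55, which spans a fall as well as a rise. Tbx3 differed from WT by 0.20, 0.07 and -0.17 (SE 0.46) and Rnf43 by 0.17, -0.08 and 0.20 (SE 0.38). Sp5 had higher means in all knockouts (27.9 to 37.4 normalised counts against 21.2 in WT), but its log2 differences of 0.53, 0.97 and 0.79 had an SE of 0.62. With each library left out in turn, the differences in tRNA-Phe-1-1-/- ranged from -0.78 to 0.05 for Axin2, from -0.24 to 0.60 for Tbx3, from -0.25 to 0.51 for Rnf43 and from -0.09 to 0.97 for Sp5, so that their signs depended on single libraries. Nkd1 was nearly level between genotypes, at means of 98.7 in WT and 99.3 to 116 in the knockouts, and tRNA-Phe-3-1-/- replicate A had the lowest of its 12 values, 58.59.

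**Figure D3:**
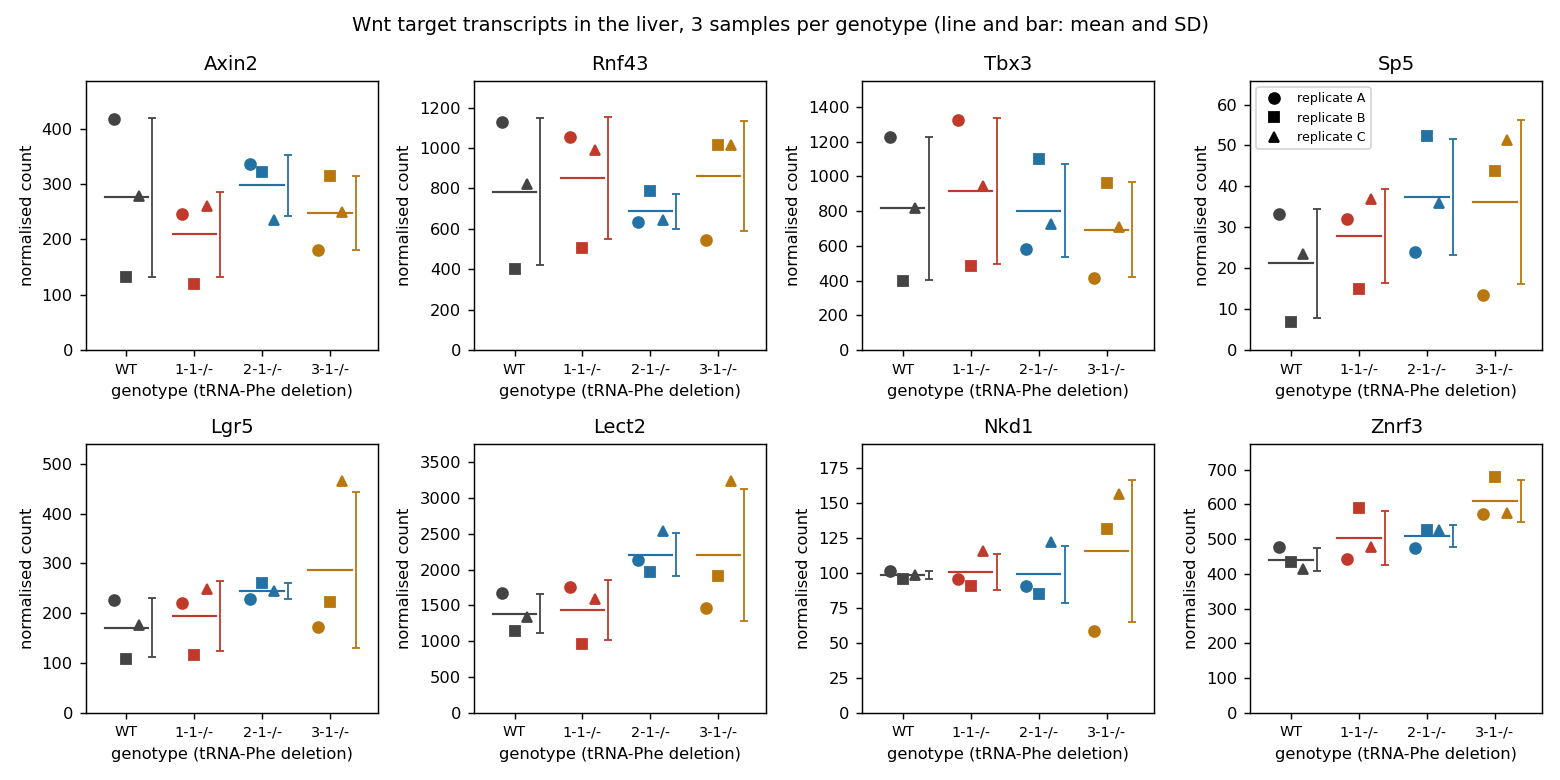
Normalised counts of the 8 Wnt target genes in the liver for each genotype on the x axis. Points are replicates A, B and C, lines are means and bars are the SD of 3 samples. Rnf43 spans 403.2 to 1128 within WT, and Znrf3 is 572.5 to 678.5 in tRNA-Phe-3-1-/- against 413.8 to 476.8 in WT.

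Liver members whose groups did not overlap WT numbered 0 of 9 in tRNA-Phe-1-1-/-, where 34.8% of all genes did not overlap. In tRNA-Phe-2-1-/- they numbered 3 of 9 (Rspo3, Lgr5 and Lect2, all higher; 25.4% of all genes) and in tRNA-Phe-3-1-/- 1 of 9 (Znrf3, higher; 19.9%). The median log2 difference over the 9 members was 0.17, 0.24 and 0.20 in the 3 knockouts, against 0.01 or less in size for the median of all genes. These 3 liver comparisons share the WT samples, of which replicate B was the lowest for 7 of the 8 targets. For 7 genes tested in both tissues, no member differed between the tissues in its response to a knockout by limma, the tool run for this contrast, where 6.94%, 0.0346% and 0.45% of 14456 genes did for the 3 knockouts. None of the 7 reached an unadjusted p under 0.05.

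**Figure D4:**
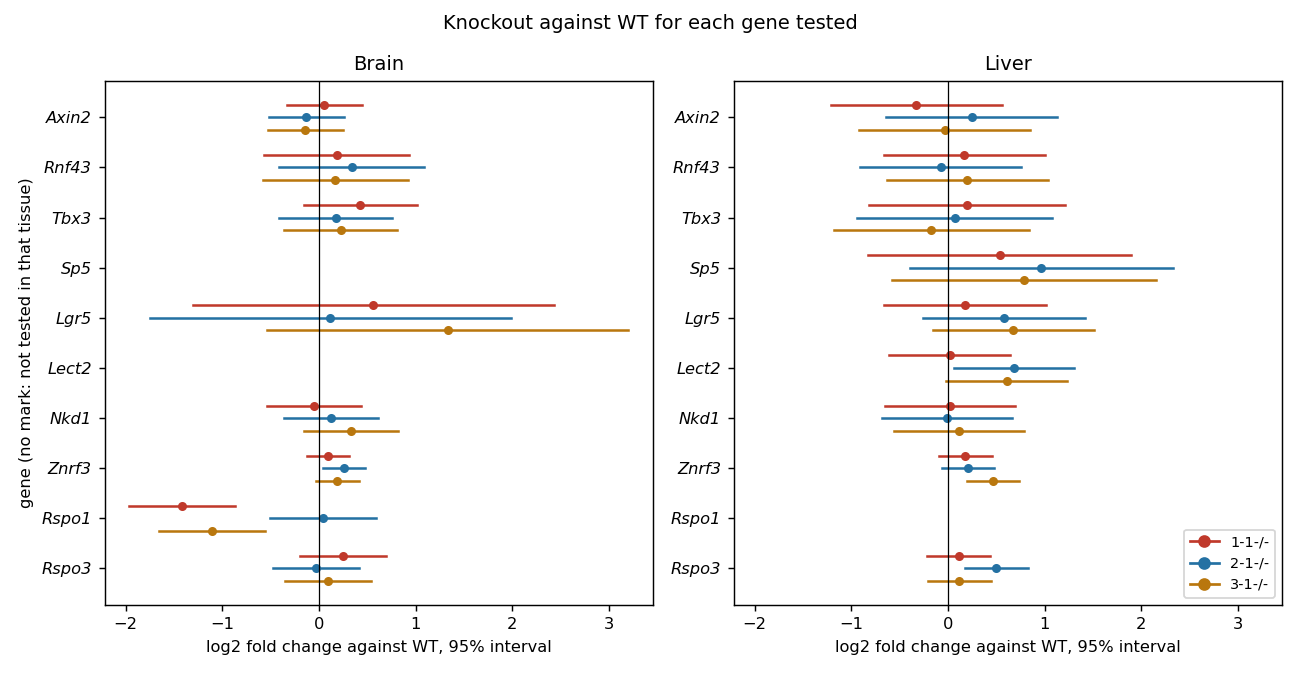
Log2 fold change against WT of each member tested, in the brain and the liver, for the 3 knockouts. Points are limma estimates on the log2(normalised count + 1) scale and bars are 95% intervals. The brain bars of Rspo1 rest on samples whose values chose the gene and are not read as tests. The bars of Lgr5 in the brain are the widest, with -0.53 to 3.20 in tRNA-Phe-3-1-/-. Genes with no mark were too low to test in that tissue.

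The targets varied widely in the liver between replicates of the same genotype, and most of them moved together. In WT, replicate B had the lowest value of its genotype for 7 of the 8 targets, all but Znrf3. Its Rnf43 was 403.2 against 1128 and 821.1 in the other two, its Tbx3 was 400.3 against 1227 and 819.8, and its Axin2 was 131.5 against 418.2 and 277.6. In tRNA-Phe-1-1-/-, replicate B was lowest for the same 7 targets, with Rnf43 at 506.1, Tbx3 at 484.9 and Axin2 at 119.9. In tRNA-Phe-3-1-/-, replicate A was lowest for all 8, with Rnf43 at 545.6, Tbx3 at 414 and Sp5 at 13.45. tRNA-Phe-2-1-/- had no such library, since replicate A was lowest for 5 targets, B for 2 and C for 1.

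Deviations from the genotype mean on the log2 scale gave the same picture over the 12 liver samples. Pearson's r was 0.83 to 0.96 for the 6 pairs among Axin2, Rnf43, Tbx3 and Sp5, and 0.93 for Lgr5 with Lect2. For the same 6 pairs in the brain it was -0.08 to 0.49, where 3 of the pairs hold Sp5 at 2.155 to 10.57 normalised counts. The 3 pairs without Sp5 had r of -0.08, 0.43 and 0.49 in the brain and 0.88, 0.94 and 0.95 in the liver. Znrf3 did not follow the other 7 targets in the liver (r from -0.37 to 0.14). These are descriptions, since the samples of a genotype share its mean and the pairs share libraries. The summed pericentral hepatocyte markers (15 genes that exclude the members) moved with the targets, with r of 0.82 for Rnf43, 0.85 for Lect2, 0.80 for Lgr5, 0.74 for Axin2 and -0.22 for Znrf3. The summed periportal markers moved the other way, with r of -0.75 for Axin2 and -0.74 for Rnf43.

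**Figure D5:**
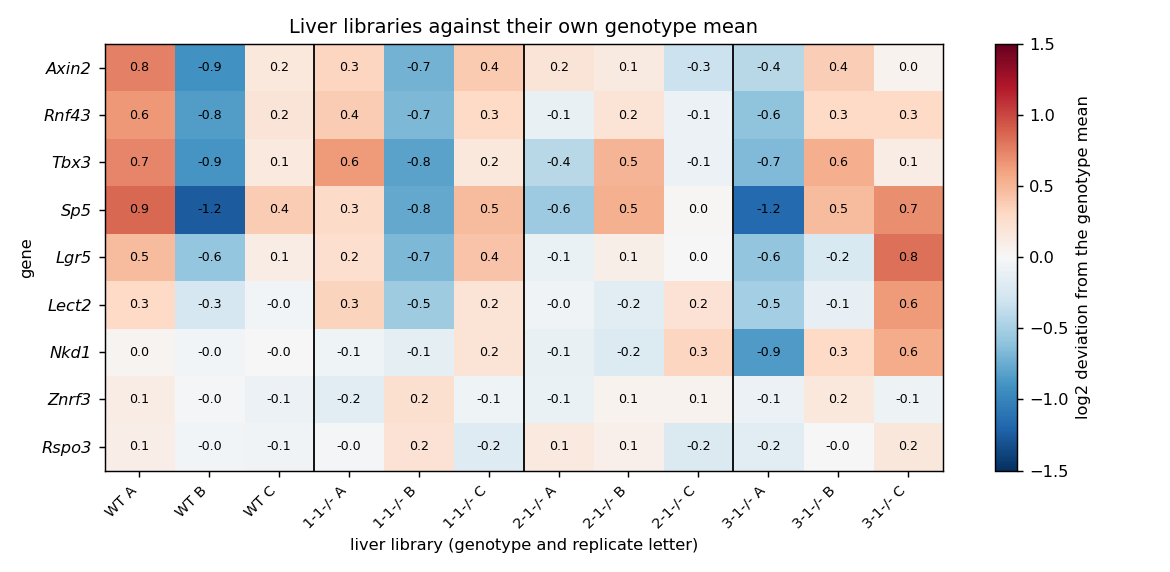
Heat map of the 8 targets and Rspo3 (rows) in the 12 liver samples (columns, black lines between genotypes). Each cell prints and colours the deviation from the genotype mean on the log2(normalised count + 1) scale, red for higher and blue for lower. The columns of WT replicate B, tRNA-Phe-1-1-/- replicate B and tRNA-Phe-3-1-/- replicate A are blue for most targets, and Znrf3 does not follow them.

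The marker sums of the hepatocyte zones did not overlap between tRNA-Phe-2-1-/- and WT, where 25.4% of all genes did not overlap either, and limma called 0 of the 15 pericentral and 0 of the 14 periportal genes. The sums themselves were not tested. Pericentral markers summed to 202823 to 269389 normalised counts in WT, 159439 to 310011 in tRNA-Phe-1-1-/-, 327184 to 358849 in tRNA-Phe-2-1-/- and 208569 to 380760 in tRNA-Phe-3-1-/-, so that tRNA-Phe-2-1-/- lay above WT and the other groups overlapped it. Periportal markers summed to 496607 to 706773 in WT and 421595 to 470760 in tRNA-Phe-2-1-/-, which lay below. The markers of central vein endothelium, the source of Wnt2, Wnt9b and Rspo3 (7 genes, none at 0 in any sample), summed to 813 to 926 in WT and were higher in every knockout sample, at 1057 to 1201 in tRNA-Phe-1-1-/-, 1255 to 1429 in tRNA-Phe-2-1-/- and 969 to 1773 in tRNA-Phe-3-1-/-. Stellate cell markers overlapped in all groups, at 14250 to 15781 in WT and 15311 to 20097 in the knockouts. The central vein list holds Wnt2 and Wnt9b themselves. Over all liver genes tested, 34.8%, 25.4% and 19.9% did not overlap WT in the 3 knockouts. In tRNA-Phe-2-1-/- livers Rspo3, Lgr5 and Lect2 and the pericentral and central vein sums were all above WT. Other sums of the pathway lay below WT there. TCF and LEF factors with their partners (8 genes) summed to 1406 to 1651 against 1757 to 2088. Rspo2, Rspo4, Lgr4 and Lgr6 together summed to 2698 to 2985 against 3045 to 3419. Axin2, Tbx3 and Rnf43 overlapped WT, with log2 differences of 0.24, 0.07 and -0.08. For deviations from the genotype mean, r with the pericentral sum was -0.09 for Rspo3, 0.80 for Lgr5 and 0.85 for Lect2. With the central vein sum it was 0.28, 0.26 and 0.44. Among the other lists, endothelial markers were 11650 to 13172 in WT, 13195 to 14437 in tRNA-Phe-2-1-/- and 13744 to 15316 in tRNA-Phe-3-1-/-, and general hepatocyte markers were 3122912 to 3672262 in WT, 2544818 to 2884369 in tRNA-Phe-1-1-/- and 2737540 to 3036671 in tRNA-Phe-2-1-/-. The part of these cell types and zones in the member differences was not tested.

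Other genes of the pathway and of the zones were taken from lists of 102 genes, of which 79 brain and 69 liver genes reached the minimum. In tRNA-Phe-1-1-/- brains 3 of the 79 rose and none fell, against 1.05% of all genes called, and the 3 were in the ligand and receptor lists. Fzd2, a Frizzled receptor, had 307 ± 47.9 normalised counts against 160 ± 5.69 in WT (SD, n = 3), a log2 change of 0.92 ± 0.14 (SE, adjusted p = 0.0175). Lrp5, a Wnt co-receptor, had 241 ± 10.9 against 151 ± 7.72 (0.67 ± 0.10, adjusted p = 0.0200). Wnt4, a ligand, had 408 ± 83.0 against 245 ± 22.5 (0.72 ± 0.15, adjusted p = 0.0470). The median log2 difference over the 79 genes was 0.07. These 3 calls are those of limma, edgeR called the same 3, and DESeq2 called 4, with Wnt2b added. The calls of Fzd2, Lrp5 and Wnt4 were lost when any of 4, 5 and 6 of the 6 libraries compared was left out. Wnt4 was also lost in 6 of 12 other settings (no filter, quantile normalisation, no variance trend, the replicate block, only the groups compared, and without the libraries that stood apart) and Lrp5 in 1 (only the groups compared). In the brains of tRNA-Phe-2-1-/- limma called none of the 79 (8 at an unadjusted p under 0.05), as did edgeR and DESeq2. In those of tRNA-Phe-3-1-/- limma and edgeR called none (13 and 14 at an unadjusted p under 0.05) and DESeq2 called 2, Gls2 and Wnt10a.

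In tRNA-Phe-1-1-/- livers 4 of the 69 genes rose and 6 fell by limma, that is 10 of 69 against 17.3% of all genes. For the same 69 genes, edgeR called 9 and DESeq2 called 15. Among the receptors, Fzd6 fell by 1.19 on the log2 scale (153 ± 46.6 against 346 ± 59.1, SE 0.23, adjusted p = 0.00536). Btrc, which marks beta-catenin for breakdown, fell by 0.53 (506 ± 37.7 against 732 ± 60.5, SE 0.10, adjusted p = 0.00379). The pericentral genes moved in both directions. Slc1a2, a glutamate transporter, rose by 1.54 ± 0.25 (9068 ± 1236 against 3164 ± 757, adjusted p = 0.00198), whereas Cyp2c29, a cytochrome, fell by 0.96 (20084 ± 3636 against 38773 ± 942, SE 0.16, adjusted p = 0.00268). Of the periportal genes, Pck1, the gluconeogenic enzyme, rose by 1.93 ± 0.25 (101543 ± 6801 against 26744 ± 2751, adjusted p = 0.000582) and Uroc1, of histidine breakdown, fell by 0.71 (9267 ± 965 against 15247 ± 2499, SE 0.13, adjusted p = 0.00467). These 6 genes were called whichever of the 6 libraries was left out.

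Among all 15 pericentral genes tested in tRNA-Phe-1-1-/- livers, 2 rose and 1 fell, with a median log2 difference of 0.34, and among 14 periportal genes 1 rose and 2 fell, with a median of -0.30. In tRNA-Phe-2-1-/- livers limma and edgeR called none of the 69 genes (25 and 24 at an unadjusted p under 0.05) and DESeq2 called 6 (Bcl9, Sfrp1, Slc1a2, Tat, Tcf7l2 and Wnt2). The median log2 differences there were 0.52 for pericentral and -0.40 for periportal genes. In tRNA-Phe-3-1-/- livers limma called 1 of the 69, against 0.883% of all genes, and edgeR called the same 1. DESeq2 called 5 (Dvl3, Lrp5, Oat, Slc1a2 and Wnt2), where it called 768 genes in all. The pericentral gene Oat, ornithine aminotransferase, rose by 1.15 ± 0.21 (25261 ± 6005 against 11239 ± 1955, adjusted p = 0.0353), a call that was lost when any of 5 of the 6 libraries was left out and in 2 of 11 other settings (no variance trend and only the groups compared). The medians in tRNA-Phe-3-1-/- were 0.41 for pericentral and -0.09 for periportal genes. The Wnt target members, with 0 calls by limma in the same 3 comparisons, had medians of 0.17 to 0.24 together with Rspo3.

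The genes whose counts followed a member most closely over the 12 samples of a tissue were ranked by Pearson's r, among 13163 protein-coding genes in the brain and 11354 in the liver. These values carry no test, since the samples share genotypes and libraries. For Rspo1 in the brain these were Rassf3 (0.894), Hsf4 (0.877), Rorb (0.876), Gabrb2 (0.872) and Tek (0.871), and for Rspo3 in the brain Gm20683 (0.879), Rbmx2 (0.862), Fn1 (0.854), Ppwd1 (0.850) and Tfb2m (0.844). In the liver, Axin2 was followed by Cpsf4 (0.948), Ccn1 (0.933), Slc16a11 (0.870), Plcg1 (0.869) and Usf3 (0.859). Lgr5 was followed by Slc22a7 (0.965), Tnfaip8l1 (0.948), Susd4 (0.943), Tmem97 (0.937) and F2r (0.936). Lect2 was followed closely by Ugt3a1 (0.952), Adtrp (0.951) and Ces3a (0.943). Rspo3 in the liver was followed by Ckap5 (0.884), Ccdc124 (0.877), Zswim5 (0.841), Uba3 (0.836) and Saraf (0.825).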

How the data were processed

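RNA sequencing of total RNA from brain and liver was performed by the authors. Reads went through Trim Galore for trimming and STAR for alignment, and the authors quantified transcripts with Salmon against a GENCODE annotation of GRCm38.p6 and summed them to genes with tximport. The deposited tables hold a signal per gene, the estimated read counts divided by the DESeq2 size factor of each sample, made by the authors for each tissue on its own. Salmon divides reads between similar transcripts, and size factors take most genes as unchanged. The 12 deposited tables of comparisons (a mean, a log2 fold change, its error and an s-value, by the authors) were not used. Every value was a whole multiple of a step per sample within a tolerance of 0.001 (100% of values), which gave the reads behind it.

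Genotypes, tissues and letters came from the sample labels. The 10 members and all gene lists were chosen with earlier results of these data known. The test was limma 3.58.1 (R 4.3.3) with a variance trend, applied to log2(normalised count + 1) on the 12 samples of a tissue, for genes whose mean normalised count reached 10. P-values (two-sided) received the Benjamini-Hochberg adjustment over all genes of a comparison, at a threshold of 0.05. They measure the spread between these samples. The pseudocount of 1 understates the change of low genes. Differences between tissues were interaction contrasts over the 24 samples. Counting floors of 3 reads cover counting error only. For 3 samples against 3, the smallest two-sided p of an exact permutation test on 1 gene is 0.1.

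All members are named. Pathway genes were named where they were called in a knockout against WT, at most 6 per comparison by lowest adjusted p, and for likeness 5 protein-coding genes with a mean of at least 50. Pathway genes named as called by DESeq2 alone were chosen after their values were seen. Some genes chosen by the likeness rule are not reported here. Symbols came from a later GENCODE release through the Ensembl identifiers (93.2% matched), coding sequences from the same release, and positions and promoters from RefSeq for GRCm38.p6. Alternatives were other pseudocounts (0.1 and 5), filters (none and 50), scalings (quantile and TMM), no variance trend, only the groups compared, a replicate block, each library left out, and, within each tissue, edgeR 4.0.16 and DESeq2 1.42.0 on the recovered reads. The procedure was tested on simulated data. No replicates agreed within sampling noise.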

Additional observations from a re-analysis of the deposited data

Results flagged for a closer look

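In 4 cases a pathway gene named above responded differently to a knockout in the brain and in the liver, by the interaction contrast of the fit over all genes. For Slc1a2, the log2 difference from WT in the brain minus that in the liver was -1.56 in tRNA-Phe-1-1-/- (-0.02 in the brain and 1.54 in the liver) and -1.58 in tRNA-Phe-3-1-/- (-0.45 and 1.13). Lrp5 differed by 1.02 in tRNA-Phe-1-1-/- (0.67 in the brain and -0.35 in the liver). Btrc differed by 0.61 in tRNA-Phe-1-1-/- (0.08 and -0.53). No member was among them. Of the 56 pathway genes tested in both tissues, 3 were called higher and 1 lower in tRNA-Phe-1-1-/-, where 6.94% of all genes were called. In tRNA-Phe-3-1-/- 0 were higher and 1 lower, against 0.45% of all genes. The genes looked at here were those already named for a call in 1 tissue of the same data. Groups of 3 samples are too small for a rule on single outlying samples.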

How the results depend on the processing

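No called fold change turned its direction. The called genes were picked by the same data, so this is a description and not a check. Differences that were not called did turn. With a library left out in turn, 10 of 24 brain and 15 of 27 liver differences of members from WT took both signs. In tRNA-Phe-2-1-/- livers the range was -0.21 to 0.62 for Axin2 and -0.37 to 0.43 for Tbx3, the lowest value of Sp5 was 0.34, and in tRNA-Phe-3-1-/- livers it was -0.49 to 0.34 for Axin2, -0.61 to 0.19 for Tbx3, 0.26 to 0.97 for Lgr5 and 0.29 to 0.86 for Lect2. In the counts of members called, leaving out the variance trend gave 0 for tRNA-Phe-1-1-/- versus tRNA-Phe-2-1-/- and for the 4 genotypes in the brain, and fitting only the groups compared gave 0 for tRNA-Phe-1-1-/- versus tRNA-Phe-2-1-/-. Removing the 4 libraries that stood apart, an alternative chosen after seeing the data, also gave 0 for these 2 results. DESeq2 gave 1 for tRNA-Phe-3-1-/- against WT and 1 for tRNA-Phe-2-1-/- versus tRNA-Phe-3-1-/- in the brain (Rspo1), and 1 for tRNA-Phe-3-1-/- against WT (Znrf3) and 2 for the 4 genotypes (Rspo3 and Znrf3) in the liver. The cause was not tested. With each library left out in turn, the count ranged from 0 to 1 for tRNA-Phe-1-1-/- against WT in the brain (0 without WT replicate A or C, or tRNA-Phe-1-1-/- replicate B or C), for tRNA-Phe-1-1-/- versus tRNA-Phe-2-1-/- (0 in 5 of 6) and for the 4 genotypes (0 in 8 of 12), and from 0 to 1 for tRNA-Phe-1-1-/- versus tRNA-Phe-3-1-/- and the 4 genotypes in the liver (Znrf3, without tRNA-Phe-1-1-/- replicate B). The other counts stayed at 0. The Rspo1 log2 difference between tRNA-Phe-1-1-/- and WT was -1.65 to -1.24 with a library left out, a description because this contrast chose the gene. Brain counts of members that hold Rspo1 are not read further. The Nkd1 difference in tRNA-Phe-3-1-/- livers was 0.54 without tRNA-Phe-3-1-/- replicate A. Without the 4 libraries, the differences of Axin2 and Rspo3 in tRNA-Phe-3-1-/- brains, then a single sample, were -0.40 and 0.43. With the replicate block, the count for the 4 genotypes in the brain was 0 and the other counts of members did not change. Same-letter samples correlated over 0.1 in 7 of 18 pairs in the brain and 3 of 18 in the liver. The highest such r was 0.49 in the brain and 0.24 in the liver. In the same order, 7 and 3 of 12 samples were closest to a sample of their own letter. Whether the letters mark a shared batch or a pairing was not tested.

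Counts over all genes moved with the tool, the fit and the libraries. With a library left out, those against WT were 5 to 163, 0 to 0 and 0 to 75 in the brain and 1472 to 2559, 0 to 38 and 2 to 212 in the liver for the 3 knockouts, those between knockouts were 11 to 81, 48 to 411 and 0 to 2 in the brain and 1150 to 2572, 1512 to 2474 and 0 to 0 in the liver, and those for the 4 genotypes were 3 to 177 and 1352 to 2729. In the brain DESeq2 gave 875 against 202 for tRNA-Phe-1-1-/- and 373 and 21 against 0 for tRNA-Phe-3-1-/- and tRNA-Phe-2-1-/- (each against WT), 672 against 102, 1318 against 406 and 166 against 0 between knockouts, and 1582 against 122 for the 4 genotypes. In the liver it gave 497 against 21 for tRNA-Phe-2-1-/-, 768 against 140 for tRNA-Phe-3-1-/-, 28 against 0 between tRNA-Phe-2-1-/- and then tRNA-Phe-3-1-/- and 4586 against 2688 for the 4 genotypes. Fitting only the groups compared gave 1808 against 2751, 167 against 21 and 8 against 140 in the liver for the knockouts against WT, 931 against 2550 for tRNA-Phe-1-1-/- versus tRNA-Phe-3-1-/-, and in the brain 6, 5 and 6 between knockouts. With no trend the counts were 103 (tRNA-Phe-1-1-/-, brain), 62, 236, 1 and 49, and 0 and 33 in the liver for tRNA-Phe-2-1-/- and then tRNA-Phe-3-1-/-. With no filter they were 95 for tRNA-Phe-1-1-/-, 1 for tRNA-Phe-2-1-/- and then tRNA-Phe-3-1-/-, 222 for tRNA-Phe-1-1-/- versus tRNA-Phe-3-1-/- and 71 for the 4 genotypes in the brain, and 1 for tRNA-Phe-2-1-/- versus tRNA-Phe-3-1-/- in the liver. The replicate block gave 66 for the 4 genotypes in the brain and 1 and 9 in the liver. Without the 4 libraries, the brain counts were 689, 1 (tRNA-Phe-3-1-/-), 46, 7, 1 and 53. Tissue differences were 2 to 8 for tRNA-Phe-2-1-/- and 25 to 119 for tRNA-Phe-3-1-/- under other settings, and 605 to 1092, 0 to 9 and 5 to 232 for the 3 knockouts with a library left out. Rspo1 in the liver and Sp5 and Lect2 in the brain rest on few reads, which limits the precision of their values.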
